A study of Mus musculus with 6 samples.

Results

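Lysophospholipid acyltransferases attach a fatty acid to a phospholipid that carries only 1 acyl chain, and 10 of the 41255 genes listed for these Ba/F3 cells are described here: Lpgat1, Lclat1, Agpat1, Agpat3, Agpat5, Lpcat1, Lpcat3, Lpcat4, Mboat1 and Mboat7. All 10 were found by symbol. Lpgat1 was chosen because its mRNA was nearly absent in one genotype and present in the other in these same libraries, so its levels are given as a description and were not tested. The other 9 were chosen by name as enzymes of the same class, to see whether any of them moved opposite to Lpgat1.

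Ba/F3 cells are mouse lymphoid cells that need interleukin-3 to grow and are widely used to study signaling and oncogenes. In all cultures the cells had received a human RPL10 cDNA by retroviral transfer, in its wild-type form (RPL10 WT) or with the R98S change found in T-cell acute lymphoblastic leukemia (RPL10 R98S), and all carried a short hairpin RNA against the mouse Rpl10 gene. The 3 WT clones (28, 29 and 36) and 3 R98S clones (11, 13 and 35) were sequenced, with 1 mRNA library for each culture, after 5 min in 100 μg/ml cycloheximide. Each clone descends from a single cell, so the p-values measure the difference against the spread between 3 clones per group.

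Membrane phospholipids are made with one set of acyl chains and then remodeled: a phospholipase A removes a chain, and an acyltransferase of the kind described here puts another one on, using acyl-CoA. The same chemistry, applied to lysophosphatidic acid, is also a step of phospholipid synthesis from glycerol-3-phosphate. The enzymes fall into 2 unrelated protein families. Lpgat1, Lclat1, Agpat1, Agpat3, Agpat5, Lpcat1 and Lpcat4 belong to the family named after the AGPAT enzymes, and Lpcat3, Mboat1 and Mboat7 are membrane-bound O-acyltransferases (MBOAT).

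The libraries held between 21786776 and 24204991 reads assigned to genes. Values are normalized counts, that is, reads divided by the size factor of the library, and 1 read was worth between 0.92516 and 1.0746. Where all libraries are given, they come in the order of WT clones 28, 29 and 36 and then R98S clones 11, 13 and 35. Of the 11550 genes with a mean of at least 10, 2755 differed between R98S and WT cells at an adjusted p under 0.1 (limma). Without WT clone 28, WT clone 29 or R98S clone 11 the number was 1327, 1464 and 1578. Rpl10, the target of the hairpin in every clone, had 1883 to 3156 normalized counts. Whether reads of the human RPL10 cDNA were counted on the mouse gene is not given, so these values do not measure the knock-down. Ptprc and Cd79a, which mark leukocytes and B-lineage cells, were present (3366 to 14068 and 996.4 to 1507 normalized counts), but the B-cell precursor markers Vpreb1, Igll1, Pax5 and Rag1 had at most 3 reads in every library. The sum of 8 mast cell and myeloid markers was 9151 to 12666 in WT and 1002 to 2957 in R98S clones, and most of it was Emr1, a macrophage surface receptor gene, while Fcer1a and Elane had at most 3 reads. Cpa3 (10.2 to 103.2 in WT, 38.8 to 388.6 in R98S clones), Ms4a2, Mcpt8 and Csf1r overlapped between the genotypes. Mpo was lower in R98S clones but had at most 12.3 normalized counts. The sum of 10 B-cell precursor markers was 10158 to 15418 in WT and 5266 to 7296 in R98S clones, but most of it was Ptprc (8869 to 14068 in WT, 3366 to 5657.5 in R98S clones), 5 of the 10 had at most 3 reads, and Cd79b had higher values in most R98S clones (142.9 to 396.3 in WT, 385.8 to 705.2 in R98S clones). The sum of 3 interleukin-3 receptor genes was 87943 to 103977 in WT and 130712 to 154304 in R98S clones. Il3ra, a small part of that sum, did not follow and overlapped between the genotypes (701.5 to 918.8 in WT, 646.4 to 775.3 in R98S clones). The 6 T-cell markers summed to at most 92.88 and 4 stromal markers to at most 22.57. The part of these differences in the results below was not tested.

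Lpgat1 mRNA was all but absent from RPL10 WT cells and was expressed in every RPL10 R98S clone. The enzyme was named for the acylation of lysophosphatidylglycerol, and it also acts on lysophosphatidylethanolamine. WT clones 28, 29 and 36 had 3.072, 1.075 and 1.001 normalized counts, which stand for 3, 1 and 1 reads. R98S clones 11, 13 and 35 had 862.2, 548.1 and 820.6. All R98S clones were far above all WT clones, and within the R98S group clone 13 was the lowest.

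Summed over clones, 5 reads in WT stood against 2343 reads in R98S, a ratio of 436 per size factor, with an exact 95% interval of 186 to 1343 that covers counting error only. Without WT clone 28, which held 3 of the 5 WT reads, the ratio was 723. Of the genes tested, 51.8% had a mean in R98S cells at or above that of Lpgat1, 743.6 ± 171 (SD, n = 3). That share is of normalized counts not divided by gene length, so it does not rank Lpgat1 by transcript level. In bulk RNA, fewer cells with a transcript and less transcript per cell cannot be told apart.

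Lpgat1 lies on chromosome 1, plus strand, from 191717834 to 191784255 (GRCm38), and its exons overlap no other annotated gene. The bases just before its first annotated exon are shown because they open the gene with the largest difference in this group. They come from the RefSeq promoter table (GRCm38.p6), cover chr1:191717774-191717833 on the plus strand, and have CpG dinucleotides in capitals.
Lpgat1 upstream: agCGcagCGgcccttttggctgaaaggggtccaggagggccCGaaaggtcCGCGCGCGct
These 60 bases hold 7 CpG. The whole RefSeq window, from 191717774 to 191718073, takes 250 bases before and 50 after a RefSeq start. That start lies inside the gene bounds given above, so the 60 bases are the far upstream end of the window. The window holds 43 CpG, and 2.61% of the 32851 windows in the table hold as many. A second Lpgat1 start has 39. The windows of the other members that were in the table had between 4 CpG (a second start of Agpat1) and 45 (Lpcat4), against a median of 7 over all windows, so a CpG-dense start was shared by Lpgat1 and members present in both genotypes, such as Lpcat4 and Lpcat3 (36).

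**Figure D1:**
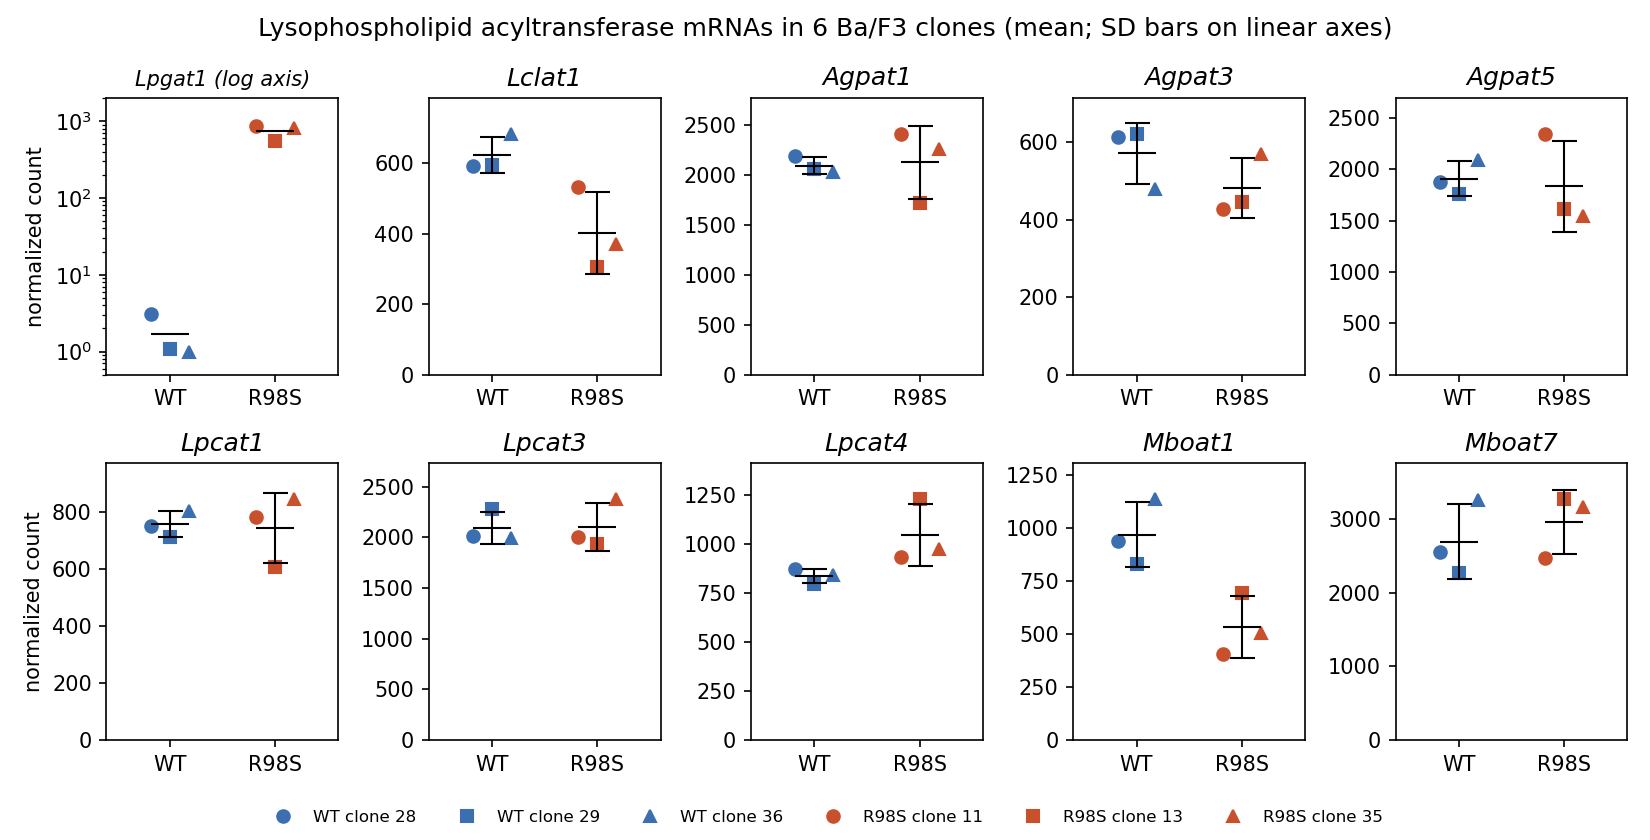
Normalized counts of the 10 acyltransferase mRNAs in each clone, with WT in blue and R98S in orange; horizontal lines are group means and bars are SD (n = 3). Lpgat1 is on a log axis without SD bars, and the others on linear axes from 0. Lpgat1 was at 1.001 to 3.072 in WT and 548.1 to 862.2 in R98S clones, and of the other 9 only Lclat1, Mboat1 and Lpcat4 had groups that did not overlap.

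None of the 9 related enzymes was called higher in R98S cells, where Lpgat1 was present, and 2 were called lower, Mboat1 and Lclat1. Thus 22.2% of the relatives were called, against 23.9% of all genes tested, a share near the background. The count was 1 without WT clone 28, 29 or 36 or R98S clone 13 or 35, since Lclat1 was then not called. In the lower direction the background was 13.1%. The median log2 fold change (log2FC, R98S minus WT) of the 9 was -0.04, and that of all genes tested was -0.011. Of the 9, 3 had groups that did not overlap, as did 37.3% of all genes tested. These enzymes were listed with earlier results of the same libraries known, so the values describe each gene against the spread between clones and do not count as independent evidence.

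The enzymes that acylate lysophosphatidic acid to phosphatidic acid did not differ beyond the spread between clones. Agpat1, an endoplasmic reticulum enzyme (chromosome 17, 34604262 to 34613449), had 2185, 2062 and 2030 normalized counts in WT against 2407, 1713 and 2254 in R98S clones. The WT values lay inside the range of the R98S values, with a log2FC of 0.01 (limma adjusted p = 0.978) and a 95% interval of the fold from 0.804 to 1.26. Its exons share 101 bases with Egfl8 on the opposite strand.
Agpat5, which has been placed at mitochondria (chromosome 8, 18846277 to 18891361), had 1873, 1761 and 2092 in WT and 2344, 1615 and 1548 in R98S clones. R98S clone 11 was the highest of the 6 libraries and the other two R98S clones were the lowest, so the groups overlapped (log2FC -0.08, limma adjusted p = 0.782, fold interval 0.723 to 1.24). Its exons share 2043 bases with the antisense gene Gm35934, and reads of the pair cannot be separated unless strand was used in counting.
Agpat3, which also acylates lysophosphatidylinositol (chromosome 10, 78269178 to 78352489), had 613.4, 621.1 and 480.4 in WT and 428.8, 447.0 and 570.8 in R98S clones. Its mean was lower in R98S cells, 482.2 ± 77.3 against 571.6 ± 79.1 (SD, n = 3), but WT clone 36 lay among the R98S clones (log2FC -0.25, limma adjusted p = 0.357, fold interval 0.643 to 1.10). Its exons share 16 bases with the opposite-strand gene Gm40709.

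Lclat1, which encodes a lysocardiolipin acyltransferase of the endoplasmic reticulum (chromosome 17, 73107985 to 73243368), was lower in R98S cells. It had 593.9, 595.4 and 683.5 normalized counts in WT against 532.9, 307.2 and 370.1 in R98S clones. Every R98S clone was below every WT clone, although R98S clone 11 was close to the WT range. The mean went from 624.3 ± 51.3 to 403.4 ± 116 (SD, n = 3), 0.646 times the WT level (log2FC -0.66, SE 0.21, limma adjusted p = 0.0658).
The call was weak. It was lost without WT clone 28 (limma adjusted p = 0.147), WT clone 29 (0.138), WT clone 36 (0.141), R98S clone 13 (0.116) or R98S clone 35 (0.157), and held without R98S clone 11 (0.0307). The log2FC in these fits was between -0.88 and -0.49.

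Mboat1, an MBOAT enzyme that acylates lysophosphatidylethanolamine and lysophosphatidylserine (chromosome 13, 30136489 to 30246717), fell in R98S cells. Its normalized counts were 938.0, 829.6 and 1134 in WT against 407.2, 694.0 and 502.4 in R98S clones. The groups did not overlap, and R98S clone 13 was the nearest to WT. The mean fell from 967.2 ± 154 to 534.5 ± 146 (SD, n = 3), 0.553 times the WT level (log2FC -0.88, SE 0.21, limma adjusted p = 0.0300). The call held without any single clone, with limma adjusted p between 0.0126 and 0.0898. No exon of Mboat1 or Lclat1 is shared with another annotated gene.

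Of the enzymes named for lysophosphatidylcholine, Lpcat1, Lpcat3 and Lpcat4, none was called. Lpcat4 (chromosome 2, 112239468 to 112247111) had 872.5, 798.5 and 843.6 in WT against 936.3, 1230 and 977.0 in R98S clones. The groups did not overlap, but with a mean that went from 838.2 ± 37.3 to 1048 ± 159 (SD, n = 3) it was short of the threshold (log2FC 0.31, SE 0.14, limma adjusted p = 0.158, fold interval 1.0 to 1.54). R98S clone 13, the lowest of its group for Lpgat1, was the highest for Lpcat4.
Lpcat1, which makes the disaturated phosphatidylcholine of lung surfactant (chromosome 13, 73467197 to 73516422), had 750.6, 712.5 and 802.6 in WT and 781.5, 605.2 and 842.8 in R98S clones, so the R98S clones lay on both sides of the WT range (log2FC -0.04, limma adjusted p = 0.897, fold interval 0.766 to 1.24).
Lpcat3, which places polyunsaturated chains in phosphatidylcholine (chromosome 6, 124663027 to 124704418), had 2011, 2278 and 1995 in WT and 1999, 1939 and 2375 in R98S clones, which overlapped almost completely (log2FC 0.00, limma adjusted p = 0.988, fold interval 0.829 to 1.21). Its exons share 334 bases with Emg1 on the opposite strand.

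Mboat7, which puts arachidonate on lysophosphatidylinositol (chromosome 7, 3677789 to 3693523), had 2556, 2274 and 3260 in WT and 2472, 3274 and 3168 in R98S clones. Both groups spanned nearly the same range, with a log2FC of 0.15 (limma adjusted p = 0.583, fold interval 0.850 to 1.44). Its exons share 277 bases with Tsen34 on the opposite strand.

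**Figure D2:**
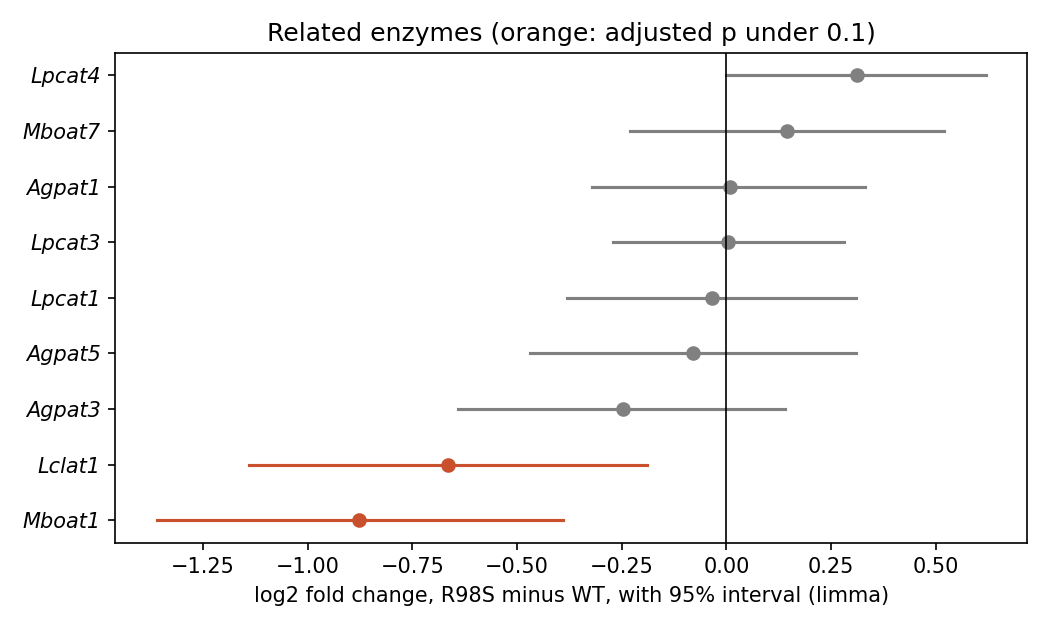
Log2 fold change (R98S minus WT, limma) of the 9 related enzymes, with points for the estimate and lines for the 95% interval; orange marks an adjusted p under 0.1. Mboat1 (-0.88) and Lclat1 (-0.66) lie below 0 with their whole interval, and no enzyme was called on the other side.

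The spread between clones was wider in R98S than in WT for most of these genes. The SD of the log2 values was larger among the R98S clones for 8 of the 9 related enzymes, against 60.6% of all genes tested. R98S clone 13 was the lowest of its group for Lpgat1, Lclat1, Agpat1, Lpcat1 and Lpcat3 and the highest for Lpcat4, Mboat1 and Mboat7. From the lowest to the highest R98S clone the factor was between 1.22 (Lpcat3) and 1.73 (Lclat1), with 1.57 for Lpgat1.

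To compare levels between genes, normalized counts were divided by the exon length of each gene in kb, taken as the union of its exons. For Mboat7 this length was 8339 bases, against 3399 for its longest transcript. Its level per kb and its place among the members therefore depend on the length used, and the order below holds for the union of exons. In WT cells Agpat1 (697 ± 27.4 per kb) and Lpcat3 (641 ± 48.7) led, and their ranges over clones overlapped. Mboat7 (323 ± 60.9), Lpcat4 (297 ± 13.2) and Mboat1 (264 ± 42.1) formed a middle group in which neighbours in the order overlapped. Agpat5 (177 ± 15.6) and Lpcat1 (163 ± 9.77) overlapped as well. Lclat1 (128 ± 10.5), Agpat3 (73.4 ± 10.2) and Lpgat1, at 0.132 to 0.404, each stood apart from their neighbours (SD, n = 3 throughout).

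In R98S cells Lpgat1 reached 97.7 ± 22.4 per kb and took the eighth place of 10, above Lclat1 (82.4 ± 23.8) and Agpat3 (61.9 ± 9.92) and below Mboat1 (146 ± 39.9), but its range (72.02 to 113.3) overlapped those of all these 3. Mboat1 moved from the fifth to the seventh place, and Agpat1 (708 ± 122) and Lpcat3 (644 ± 72.2) still led. Only 2 of the 9 neighbouring pairs in the R98S order were separate in their ranges, compared with 5 in the WT order. With the longest transcript as the length, 3 pairs were separate in R98S and 5 in WT. Leaving out R98S clone 13, 35 or 11 gave 5, 4 and 3 separate pairs in the R98S order.

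The summed level of the 9 related enzymes overlapped between the genotypes. It was 2751, 2685 and 2855 normalized counts per kb in WT against 2703, 2583 and 2815 in R98S clones. The means were 2764 ± 85.6 and 2700 ± 116 (SD, n = 3), a ratio of 0.977. With the longest transcript as the length, the ratio was 0.992. Lpgat1 added 72.02 to 113.3 per kb in the R98S clones, which was 2.71% to 4.02% of the sum of all 10. With Lpgat1 included, the WT sum was 2764 ± 85.5 and the R98S sum 2798 ± 135, a ratio of 1.01.

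The 3 MBOAT enzymes summed to 1229 ± 72.0 per kb in WT against 1146 ± 115 in R98S cells, and the 6 AGPAT-type enzymes without Lpgat1 to 1535 ± 42.9 against 1554 ± 139 (SD, n = 3). In both sums the genotypes overlapped. The size of the MBOAT sum depends on the length taken for Mboat7, so the families are not ranked against each other. Sums of mRNA levels weigh all enzymes alike whatever their activity or substrate.

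**Figure D3:**
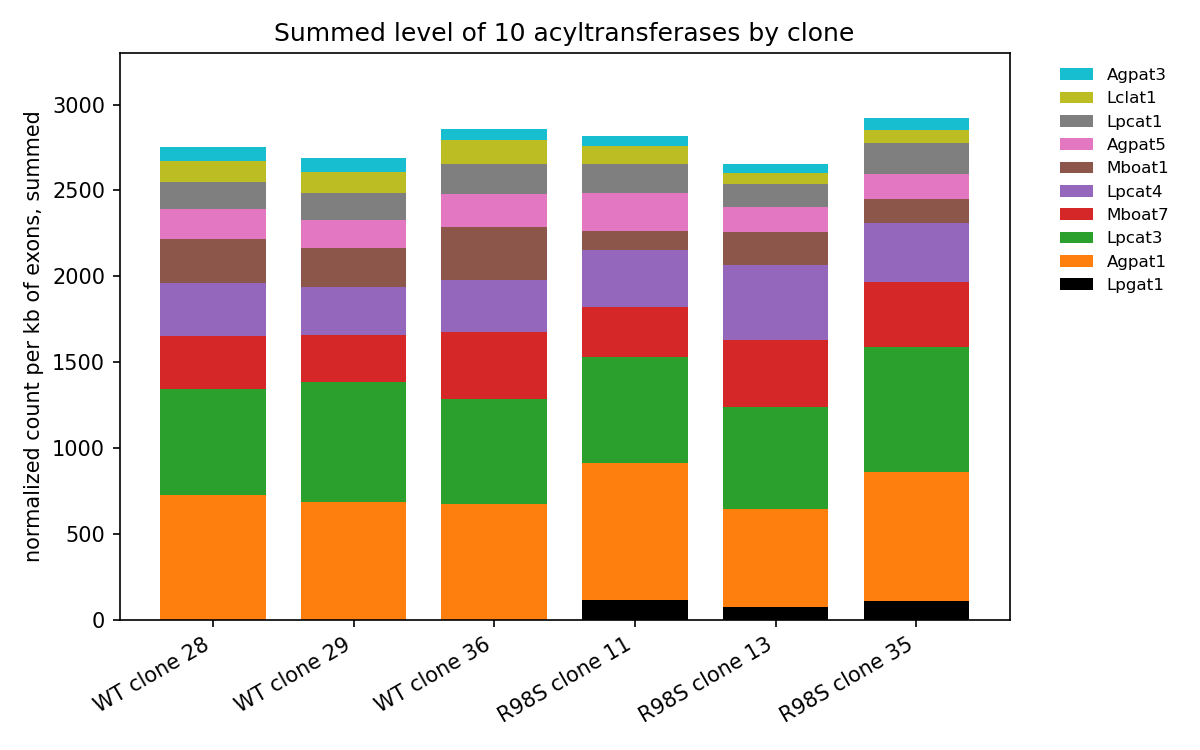
Summed normalized counts per kb of exons for the 10 acyltransferases in each clone, stacked by gene, with Lpgat1 in black at the base. The black part is visible only in the R98S clones (72.02 to 113.3 per kb), while the whole bars lie between 2655 and 2923 in R98S and between 2685 and 2855 in WT clones.

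Other acyltransferases, most but not all of them of glycerolipid metabolism, were compared from a list of 15 genes set by name, of which 9 were tested. None was called higher and 2 were called lower in R98S cells (22.2%, near the 23.9% of all genes tested), with a median log2FC of -0.06. Agpat9, also known as Gpat3, a glycerol-3-phosphate acyltransferase, had 46.08, 52.66 and 26.02 normalized counts in WT and 6.568, 18.37 and 8.326 in R98S clones, low values whose groups did not overlap (log2FC -1.88, limma adjusted p = 0.0324). Its call was lost without WT clone 28 (0.111), WT clone 29 (0.112) or R98S clone 11 (0.103). The exons of Agpat9 share 1052 bases with the antisense gene 4930458D05Rik and 259 with Gm42987 on the same strand, so part of its reads is uncertain.
Mboat4, the ghrelin acyltransferase and no phospholipid enzyme, went from 44.62 ± 10.6 to 19.63 ± 6.32 (SD, n = 3; log2FC -1.16, limma adjusted p = 0.0621), and its adjusted p was 0.178, 0.196, 0.135 and 0.105 without WT clone 28, WT clone 29, R98S clone 11 and R98S clone 13. Among further lysophospholipid acyltransferases, singled out after their values were seen, Agpat2 had 672 to 715 normalized counts in WT and 701 to 943 in R98S clones (limma adjusted p = 0.371), and Taz, the tafazzin of cardiolipin remodeling, 1081 to 1189 and 931 to 1134 (limma adjusted p = 0.361). Lpcat2 and Mboat2 had at most 3 reads in any library, Lpcat2b at most 4 and Agpat4 at most 12, so in both genotypes these 4 stayed far below the 548.1 to 862.2 normalized counts of Lpgat1 in R98S clones.

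The reactions before and after acylation were examined in the same way, with 95 genes in 6 lists including the one above. Of 64 tested, 18 were called (28.1%, against 23.9% of all genes tested), 4 higher and 14 lower in R98S cells, with a median log2FC of -0.06. Without WT clone 28 the count was 8, without WT clone 29 it was 10, and without R98S clone 11 or R98S clone 35 it was 12.

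Among the phospholipases A, which release the lysophospholipids, 4 of 12 tested genes were called lower and none higher (33.3% called, against 23.9% of all genes tested, and 13.1% in the lower direction). The list as a whole did not shift, with a median log2FC of 0.02. Its largest difference was upward but overlapping and not called, in Pla2g4c, from 25.12 ± 20.8 to 60.77 ± 19.3 (SD, n = 3; log2FC 1.47, limma adjusted p = 0.105). Pnpla8, a calcium-independent phospholipase of mitochondria and peroxisomes, had 2564, 2863 and 2551 normalized counts in WT against 1390, 1285 and 1549 in R98S clones (log2FC -0.92, limma adjusted p = 0.00297). Pla2g4a, the cytosolic phospholipase that releases arachidonate, had 3814, 4008 and 3660 in WT and 2494, 2438 and 2364 in R98S clones (log2FC -0.65, limma adjusted p = 0.00535). Both had groups far apart with little spread, and kept their call without any single clone.
Ddhd2, a phospholipase A1, fell from 1225 ± 20.1 to 858.7 ± 87.6 (SD, n = 3; limma adjusted p = 0.0257, and 0.103 without WT clone 28). Pla2g12a, a secreted phospholipase, went from 2003 ± 129 to 1525 ± 170 (limma adjusted p = 0.0614), with adjusted p of 0.2, 0.181, 0.102 and 0.141 without WT clone 28, WT clone 29, R98S clone 11 and R98S clone 35.

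Of 9 tested genes for lysophospholipases and related hydrolases, 1 was called higher and 2 lower (33.3%, against 23.9% of all genes tested). Lyplal1, a serine hydrolase related to the lysophospholipases, rose in every R98S clone, from 228.4, 206.3 and 180.1 normalized counts in WT to 371.5, 481.7 and 433.9 (log2FC 1.06, SE 0.17, limma adjusted p = 0.00790), and kept its call without any single clone. Abhd16a, a hydrolase of phosphatidylserine, went from 1331 ± 85.9 to 1006 ± 112 (limma adjusted p = 0.0614), and Gpcpd1, which cleaves glycerophosphocholine, from 832.2 ± 24.7 to 542.2 ± 161 (limma adjusted p = 0.0639; SD, n = 3). With all clones the log2FC was -0.41 for Abhd16a and -0.66 for Gpcpd1. Without 1 clone it was between -0.49 and -0.33 for Abhd16a and between -0.88 and -0.47 for Gpcpd1. These last 2 calls did not hold in every such fit. That of Abhd16a was lost without WT clone 28 (0.198), WT clone 29 (0.187) or R98S clone 35 (0.126), and that of Gpcpd1 without WT clone 28 (0.164), WT clone 29 (0.16), WT clone 36 (0.105), R98S clone 11 (0.165) or R98S clone 35 (0.146).

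Phosphatidylglycerol, the product for which Lpgat1 was named, is also the precursor of cardiolipin. Of 8 tested genes for these lipids, 7 were not called (12.5% called, against 23.9% of all genes tested), with a median log2FC of 0.01. Prelid1, which carries phosphatidic acid across the mitochondrial intermembrane space, fell from 10064, 10406 and 8414 normalized counts in WT to 6597, 7244 and 6329 in R98S clones (log2FC -0.51, limma adjusted p = 0.0255, and 0.107 without WT clone 28). Its exons share 1258 bases with Rab24 on the opposite strand, so part of its reads is uncertain.

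Genes of phospholipid synthesis, most of them for the head groups, were called in both directions, 3 higher and 3 lower of 18 tested (33.3%, against 23.9% of all genes tested). The tested genes also included Lpin1, Lpin2 and Dgat1, which are not head-group genes. Pcyt2, which makes CDP-ethanolamine for phosphatidylethanolamine, rose from 681.0, 735.1 and 782.6 normalized counts in WT clones 28, 29 and 36 to 1289, 1333 and 1187 in R98S clones 11, 13 and 35 (log2FC 0.79, SE 0.12, limma adjusted p = 0.00569). Cdipt, the phosphatidylinositol synthase, rose from 1584 ± 157 to 2654 ± 381 (SD, n = 3; log2FC 0.74, limma adjusted p = 0.0133). Both kept their call without any single clone. Etnk1 and Ept1, which like Pcyt2 serve the ethanolamine branch, were not called (limma adjusted p = 0.396 and 0.576).
Ptdss2, a phosphatidylserine synthase, went from 509.2 ± 3.84 to 647.0 ± 23.2 (limma adjusted p = 0.0835), and its call held only without R98S clone 13, with adjusted p of 0.245, 0.214, 0.125, 0.191 and 0.136 without WT clones 28, 29 and 36 and R98S clones 11 and 35. On the phosphatidylcholine side, Pcyt1b, a minor isoform of the enzyme that makes CDP-choline, fell from 41.13 ± 12.5 to 9.786 ± 5.19 (log2FC -2.03, limma adjusted p = 0.0210). Pcyt1a, the other isoform, had far higher counts, 2779 ± 136 in WT and 2449 ± 550 in R98S cells, and was not called (limma adjusted p = 0.411). Chka, Chkb, Cept1 and Pemt were not called either (limma adjusted p = 0.409, 0.562, 0.294 and 0.386). Chpt1, a cholinephosphotransferase, fell from 559.6 ± 32.4 to 261.3 ± 123 (log2FC -1.24, limma adjusted p = 0.0568), with 119.4 in R98S clone 13. Its adjusted p was 0.144 without WT clone 28 and 0.134 without WT clone 29. Lpin2, a phosphatidic acid phosphatase named after its values were seen, had 4410, 4308 and 6622 in WT and 3419, 3972 and 2392 in R98S clones (log2FC -0.65, limma adjusted p = 0.0878). Its call held without R98S clone 13 and was lost without WT clone 28 (0.134), WT clone 29 (0.114), WT clone 36 (0.19), R98S clone 11 (0.164) or R98S clone 35 (0.216).

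Of the enzymes and carriers that supply acyl-CoA, the co-substrate of every acyltransferase described here, 2 of 8 tested were called, both lower, a share of 25% that is near the 23.9% of all genes tested. The median log2FC was -0.23. Acsl5, with the highest counts of the list, was not called and had the higher mean in R98S cells, 9204 ± 1763 against 7464 ± 571 (SD, n = 3; limma adjusted p = 0.217). Acsl3, also not called, had the lower mean there (log2FC -0.44, limma adjusted p = 0.176). Acsl1, an acyl-CoA synthetase for long chains, fell from 2128, 2250 and 1500 normalized counts in WT to 723.4, 1082 and 864.1 in R98S clones (log2FC -1.14, SE 0.20, limma adjusted p = 0.0111). Acsl4, which prefers arachidonate, fell from 5190 ± 1089 to 3240 ± 440 (SD, n = 3; log2FC -0.67, limma adjusted p = 0.0339). Acsl1 kept its call without any single clone, while Acsl4 had an adjusted p of 0.101 without R98S clone 11 and, just over the threshold, 0.1 without R98S clone 35. Exons of Acsl1, Cdipt and Chpt1 share 1039, 169 and 660 bases with the opposite-strand genes Gm45244, Cdiptos and Sycp3.

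**Figure D4:**
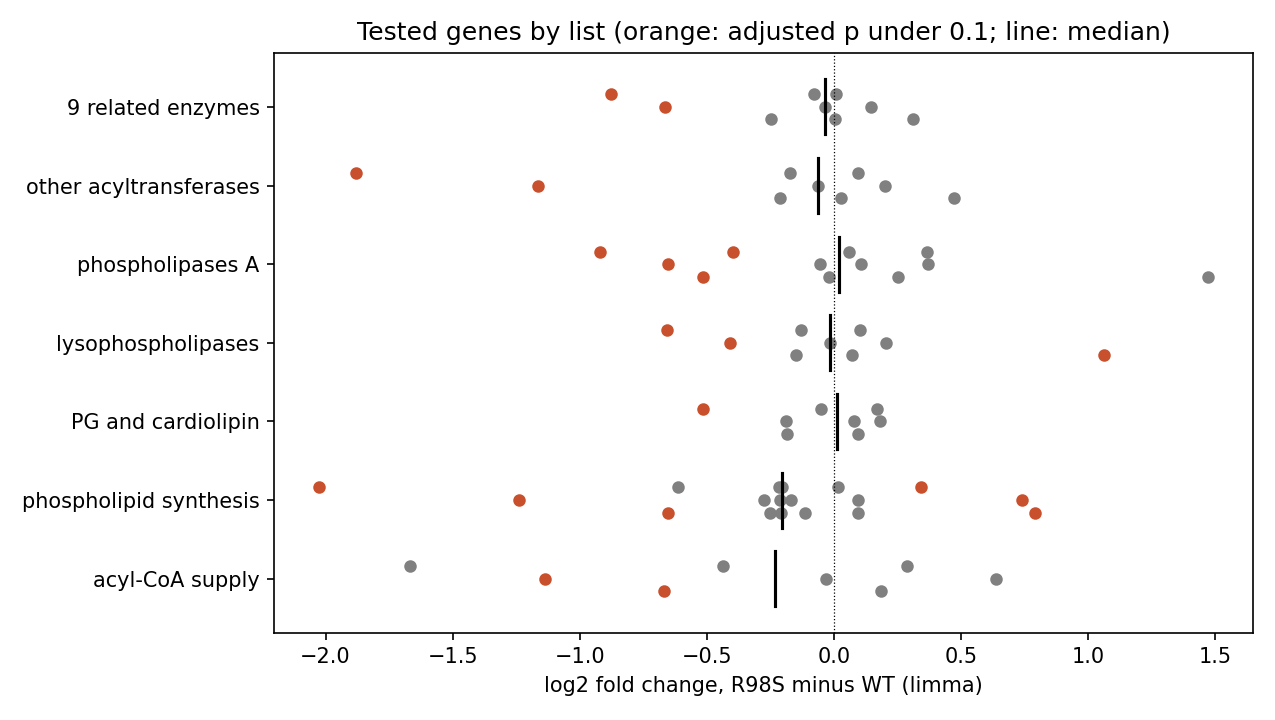
Log2 fold changes (R98S minus WT, limma) of the tested genes of the 9 related enzymes and of 6 other lists of phospholipid metabolism; each point is a gene, orange marks an adjusted p under 0.1, and the black line is the median of a list. The called phospholipases A all lie below 0, although the median of that list is 0.02, and called genes of phospholipid synthesis lie on both sides.

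The genes beside Lpgat1 on chromosome 1 were compared to see whether the difference extended along the chromosome. The nearest tested gene on either side was not called. Ints7, whose start is 142 kb before that of Lpgat1, had 2239, 2270 and 3108 normalized counts in WT against 3042, 2323 and 2571 in R98S clones (limma adjusted p = 0.806), and Nek2, 104 kb after it, had 1779, 1882 and 3171 in WT and 2097, 2263 and 2230 in R98S clones (limma adjusted p = 0.996). In both genes WT clone 36 was the highest library.
Of the 5 nearest tested genes on each side, 1 was called higher and 1 lower, while 23.9% of all genes tested were called. The other 8 had log2FC values of 0.27 (Dtl), 0.07 (Ints7), -0.00 (Ppp2r5a), 0.04 (Tmem206), -0.00 (Nek2), -0.29 (Slc30a1), 0.09 (Traf5) and -0.28 (Rcor3). Nenf, 411 kb before, fell from 512.7 ± 87.4 to 334.3 ± 49.3 (SD, n = 3; limma adjusted p = 0.0555), a call lost (0.122, 0.124, 0.116 and 0.140) without WT clone 28, WT clone 36, R98S clone 11 and R98S clone 35. Diexf, 1373 kb after, rose from 650.3 ± 14.5 to 1054 ± 175 (limma adjusted p = 0.0189), a call that held without any single clone. Dtl was called only without WT clone 36 (log2FC 0.57, limma adjusted p = 0.0416). The same stretch held 16 further listed genes that were too low to test, 13 of them with at most 3 reads in every library and none with more than 15 reads.

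**Figure D5:**
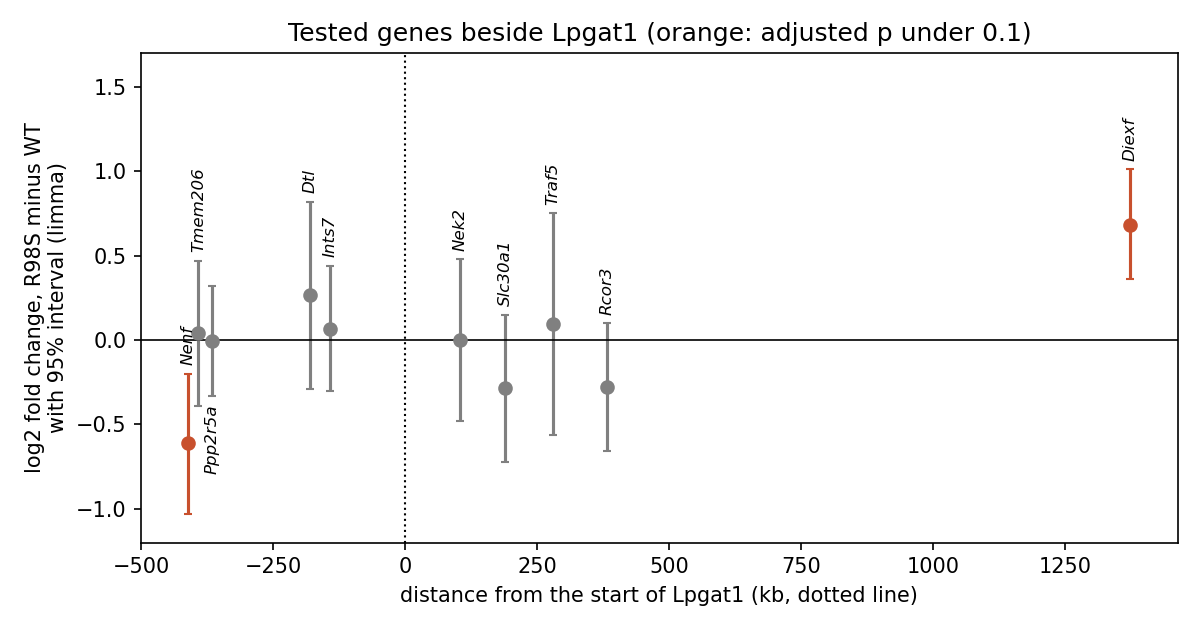
Log2 fold change (R98S minus WT, limma, with 95% interval) of the 5 nearest tested genes on each side of Lpgat1 against the distance of their start from that of Lpgat1 in kb; orange marks an adjusted p under 0.1. The genes closest to Lpgat1 lie near 0, and those called, Nenf and Diexf, are 411 and 1373 kb away.

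The genes whose pattern over the 6 libraries was most like that of Lpgat1 were found by the root mean square difference between log2 profiles, each centred on its own mean. They were Gm10451 (0.38), Gm973 (0.73), Cytip (0.86), Dlg3 (0.97) and Lgals7 (1.02). With the genotypes this far apart, the measure is set mainly by the size of the step from WT to R98S. In WT clones none of them exceeded 6 reads, and all lay on other chromosomes, except Gm973, which is on chromosome 1 from 59516264 to 59636417. As for Lpgat1, R98S clone 13 was the lowest of its group for Gm10451 (258.0, 249.0 and 311.8), Gm973 (441.9, 401.1 and 533.8) and Cytip, which had 300.2, 120.4 and 279.4 normalized counts in R98S clones 11, 13 and 35, while Dlg3 (189.5, 224.5 and 142.5) and Lgals7 (156.7, 222.5 and 171.2) were highest there. With at most 3 reads in each WT clone and at least 100 normalized counts in each R98S clone, Lpgat1 was 1 of 6 genes of this kind among the 11550 with a mean of at least 10, and 3 genes showed the opposite pattern.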

How the data were processed

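Total mRNA of 6 Ba/F3 cultures (3 RPL10 WT, 3 RPL10 R98S) was sequenced with a stranded kit. The authors removed ribosomal and transfer RNA reads with Bowtie2, aligned the rest to mm10 with TopHat, counted reads on exons per gene (HTSeq is named in the submitters' processing notes) and deposited a signal per gene, namely the count divided by a DESeq2 size factor. The annotation and the strand setting are not given in the sources used here. Filtering on mapping quality lowers genes with near-identical copies.

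In every library 100% of values above 0 were whole multiples of the value of 1 read (within 1e-06), so reads were recovered by division. Depth was 21786776 to 24204991 reads, and intervals on reads cover counting error only. Groups came from the sample titles. Differences were tested two-sided with limma 3.58.1 (R 4.3.3, intensity trend) on log2(normalized count + 1) for genes with a mean of at least 10, with Benjamini-Hochberg adjustment over all genes tested and a threshold of 0.1. Fold changes on this scale understate changes of low genes. The script was tested on simulated data. The alternatives were pseudocounts of 0.5 and 5, no filter or a minimum mean of 50, other scalings, no trend, a threshold of 0.05, each clone left out, and edgeR 4.0.16 and DESeq2 1.42.0 on recovered reads. Gene positions and lengths (union of exons, or the longest transcript) came from GENCODE M21 (GRCm38), and promoter windows from RefSeq. One marker, Adgre1, is listed as Emr1, and another marker is not reported here by itself.

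The members and the lists were chosen with earlier results of these data known. Named are all 10 members, called genes of the other lists (at most 5 a list), the 5 nearest tested genes on each side of Lpgat1 and the 5 genes most like it. Any other gene was chosen after its values were seen. Replicates are separate monoclonal cultures.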

Additional observations from a re-analysis of the deposited data

How the results depend on the processing

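No paired analysis was possible because no clone number occurs in both genotypes. At an adjusted p under 0.05, 1722 genes, 1 related enzyme (Mboat1), 11 other pathway genes and 1 neighbour of Lpgat1 (Diexf) were called, as the threshold is stricter. Leaving out one clone gave 1327 to 3219 genes (lowest without WT clone 28, highest without R98S clone 13), 1 to 2 related enzymes, 8 to 22 other pathway genes, 1 to 2 neighbours, 2 to 5 separate pairs in the R98S order, an Lpgat1 ratio of 357 to 723 and a ratio of the summed relatives of 0.956 to 0.998. Under both pseudocounts, both filters, both scalings, no trend, edgeR and DESeq2 the related enzymes called numbered 2, and Mboat1 and Lclat1 kept their calls.

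Of 144 values of the 9 related enzymes under an alternative, 126 kept direction and call, 6 lost a call (all Lclat1) and 12 changed sign, in genes that were not called in any fit. Over the fits without one clone, Agpat1 ranged from -0.09 to 0.15, Agpat5 from -0.27 to 0.031, Lpcat1 from -0.13 to 0.10, Lpcat3 from -0.086 to 0.066, Ints7 from -0.038 to 0.22, Nek2 from -0.15 to 0.26, Ppp2r5a from -0.087 to 0.12, Tmem206 from -0.056 to 0.21 and Traf5 from -0.18 to 0.40 (log2 fold change). With the same upper quartile Lpcat1 was at 0.006, Nek2 at 0.040 and Ppp2r5a at 0.038, with the same total Nek2 was at 0.019 and Ppp2r5a at 0.017, and Ppp2r5a was at 0.004 with edgeR and 0.000 with DESeq2. Among the other pathway genes, Abhd16a, Mboat4, Pla2g12a and Ptdss2 lost their call with no filter (limma adjusted p = 0.111, 0.115, 0.110 and 0.184), and Gpcpd1 and Pla2g12a with no trend (0.102 and 0.101). Lpin2 lost its call with no trend (0.148), the same upper quartile (0.101) and edgeR (0.106). A minimum mean of 50 left Agpat9, Mboat4 and Pcyt1b untested. The cause of these changes was not tested. Depth limits the fold of Lpgat1, which rests on 5 WT reads.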
